A study of Drosophila melanogaster with 3 samples.

Results

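The genes described here are the Drosophila odorant-binding protein genes (Obp) and the 3 families of chemosensory receptor genes, the odorant receptors (Or), gustatory receptors (Gr) and ionotropic receptors (Ir). They were chosen by name alone: a row of the deposited expression table belonged if a gene name in it was Obp, Or, Gr or Ir directly followed by a number. This gave 221 genes (42 Obp, 59 Or, 61 Gr and 59 Ir) in 215 of the 13358 named rows, because Gr64a to Gr64f shared 1 row, as did Obp57b and Obp57c. In all, 10 of the rows joined several genes under 1 value, and the others of these joined 1 member with a gene outside the families. RNA of brains dissected from last instar larvae raised at 25 degrees had been sequenced after removal of ribosomal RNA, with 1 library per genotype. The double mutant library came from animals homozygous for the dBRWD3 allele PX2 and for the yem insertion GS21861 (dBRWD3PX2/PX2, yemGS21861/GS21861). The single mutant library came from animals homozygous for PX2 without the yem insertion (dBRWD3PX2/PX2), and the control library from PX2 heterozygotes (dBRWD3PX2/+), so all 3 genotypes carry PX2. BRWD3 encodes a bromodomain and WD-repeat protein, and yem a partner of the histone chaperone HIRA. Values are RPKM, read numbers scaled to transcript length and library size, as the authors deposited them. Since a genotype has a single library, replicate spread is unknown, no test was made, and each statement compares libraries by their labels.

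Odorant-binding proteins are small secreted proteins that carry odorants and other hydrophobic molecules, and many are made by support cells of sense organs, by glia or by fat cells and not by neurons. Odorant receptors work as channels together with the co-receptor Orco, gustatory receptors detect sugars, bitter compounds, carbon dioxide and other cues, and ionotropic receptors are relatives of ionotropic glutamate receptors that detect acids, amines, humidity and temperature with co-receptors such as Ir25a. In the larva the cell bodies of most of these sensory neurons lie in sense organs of the head, outside the brain, and only their axons enter it. A few members, such as the fructose receptor Gr43a, are known from neurons of the brain itself.

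Most of the rows were low in these brains, and a few odorant-binding protein genes were very high. Of the 215 rows, 41 (19.1%) reached 1 RPKM in at least 1 library, against 72.6% of all named rows. By family these were 14 of 41 Obp rows (34.1%), 7 of 59 Or rows (11.9%), 10 of 56 Gr rows (17.9%) and 10 of 59 Ir rows (16.9%). In all 3 libraries 25 rows reached 1 RPKM. Another 8 rows did so in only 1 library, which was the double mutant library for 4 of them, the single mutant library for 3 and the control library for 1. At the other end, 15 rows were listed at 0 throughout and 137, those 15 included, stayed below 0.5 RPKM in every library. The rows nearest to the threshold were Obp56b, Gr77a and Ir62a just inside it, with highest values of 1.08, 1.13 and 1.19 RPKM, and Obp46a, Gr32a and Or7a just outside it, with 0.988, 0.948 and 0.945 RPKM. In double mutant, single mutant and control, Gr77a had 0.898, 1.13 and 0.458 RPKM and Ir62a 1.19, 0.834 and 0.896 RPKM. Outside the threshold, Obp46a had 0.988, 0.657 and 0.362 RPKM, Gr32a 0.884, 0.948 and 0.814 RPKM and Or7a 0.945, 0.694 and 0.908 RPKM.

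**Figure D1:**
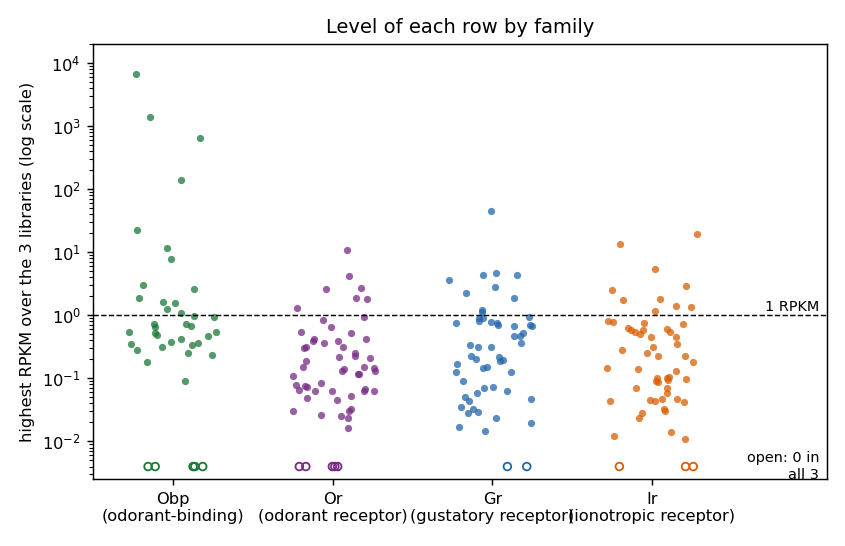
Each point is 1 row, placed by its highest RPKM over the 3 libraries (log scale) and grouped by family; open points are rows listed at 0 in all 3 libraries and the dashed line marks 1 RPKM. Points above 100 RPKM are 4 Obp rows, and most points of the receptor families lie below the line.

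Depth limits what these low values can show. If the smallest common step between values is 1 read, 1 RPKM over 1 kb of transcript rests on about 28.6 reads in the double mutant library, 22.2 in the single mutant library and 28.6 in the control library. For an Obp transcript of median length (610.5 bases) that is about 17.4, 13.5 and 17.4 reads. The control column differs in form: 103 of its 191 member values above 0 have more than 6 digits, 101 of them ending in 5, and no member value in either mutant column does. Averages of 2 values of 6 digits would look so, but no source used here states an average. Among the 159 rows that stayed under 1 RPKM without being 0 throughout, the double mutant library had 36 at 0, the single mutant library 52 and the control library 9 (22.6%, 32.7% and 5.66%). The same shares over all 3213 such named rows were 17.0%, 23.2% and 10.7%. The control library had the highest value in 87 of these 159 rows (54.7%), against 44.3% of all such rows. The part of depth and of the form of the control column in this was not tested, and differences among rows under 1 RPKM are therefore given as values only.

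Obp44a was by far the highest member. Its protein is known as a fatty acid carrier of glia in the fly brain. It had 4317 RPKM in the double mutant library, 6647 in the single mutant library and 5567 in the control library. These values placed it 26th, 21st and 20th among the 12242 rows matched to a single protein-coding gene. The lowest value was in the double mutant and the highest, 1.54-fold above it, in the single mutant library. The log2 ratio, computed throughout with 1 RPKM added to each value, was 0.26 for single mutant against control, -0.62 for double against single mutant and -0.37 for double mutant against control. Obp44a alone made up 66.9%, 78.0% and 75.7% of the summed RPKM of all members in the double mutant, single mutant and control libraries. Its annotated exons overlap those of Pabp2, whose row had 62.7, 61.2 and 48.8 RPKM, far below Obp44a.

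Obp99a, next in level, differed little. It had 1263 RPKM in the double mutant library, 1385 in the single mutant library and 1262 in the control library. Its log2 ratios were 0.13 (single mutant against control), -0.13 (double against single mutant) and 0.00 (double mutant against control). Obp44a thus stood 3.42-fold, 4.80-fold and 4.41-fold above Obp99a in the 3 libraries, in the same order.

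Obp99b, known from fat cells of the adult head, was the most uneven of the 3 abundant genes. It had 637 RPKM in the double mutant library, 148 in the single mutant library and 320 in the control library. The double mutant value was 4.31-fold the single mutant value (log2 ratio 2.10), and the single mutant value was 2.17-fold lower than control (log2 ratio -1.11). Against control the double mutant library was 1.99-fold higher, and its log2 ratio of 0.99 stopped just short of the 2-fold line. Obp99b lies on 3R, at 25541973 to 25542532, among rows that did not follow it. The neighbouring seminal peptide gene Dup99B had 0.228 RPKM in the double mutant library, 1.17 in the single mutant library and 0 in the control library, and Obp99d had 0.272, 0 and 0.547 RPKM.

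Most fat body genes had the same order of libraries as Obp99b, but the order was not theirs alone. It was also that of the hemocyte gene proPO-A1 (365, 92.0 and 119 RPKM in double mutant, single mutant and control). The neuron gene brp and the glial gene repo had it too, although most genes of the hemocyte, neuron and glia lists had other orders. Of the 7 fat body genes that reached 1 RPKM, 6 were highest in the double mutant and lowest in the single mutant library, an order found in 17.9% of all named rows at 1 RPKM. The storage protein gene Lsp2 had 505 RPKM in the double mutant library, 82.5 in the single mutant library and 271 in the control library. Lsp1alpha had 231, 23.0 and 47.3 RPKM in the same order, and the lipophorin gene Rfabg was the exception, with 13.5, 11.2 and 17.4 RPKM. Summed over the 8 measured fat body genes, the level was 1223 RPKM in the double mutant, 225 in the single mutant and 598 in the control library. Obp99b divided by Lsp2 was 1.26, 1.79 and 1.18 in the 3 libraries, and no ratio to another fat body gene was computed. Among the 41 member rows 8 (19.5%) had the order of Obp99b, one of them Obp99c with 7.88 RPKM in the double mutant, 3.73 in the single mutant and 5.68 in the control library. The exons of Obp99c overlap those of Gycalpha99B, whose row had 8.83, 10.6 and 14.1 RPKM in double mutant, single mutant and control, so the level of Obp99c is uncertain. In whole tissue, more cells of a type and more RNA per cell cannot be told apart, and the part of fat body RNA in the Obp99b values was not tested.

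**Figure D2:**
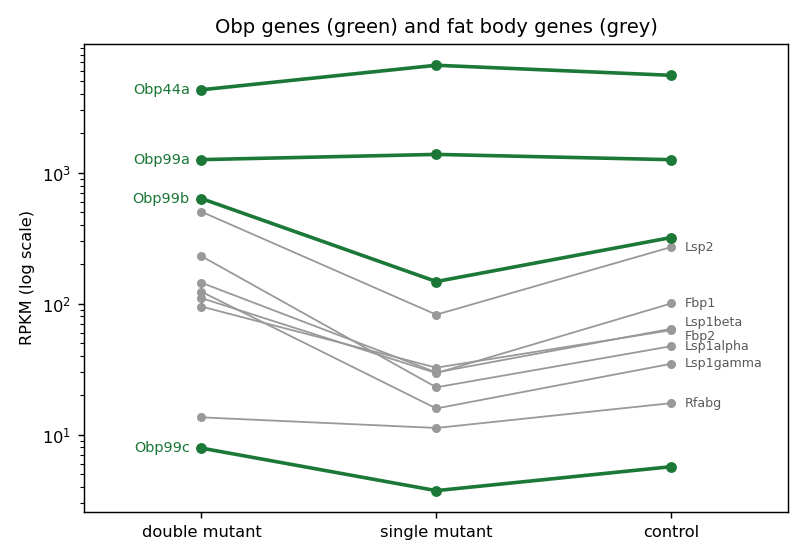
RPKM (log scale) in the double mutant, single mutant and control library for 4 Obp genes (green) and 7 fat body genes (grey), each line joining 1 gene's 3 values. Obp99b has 637, 148 and 320 RPKM, and Lsp2 likewise has its lowest value, 82.5 RPKM, in the single mutant library. Obp99a runs nearly level, and Obp44a ranges from 4317 RPKM in the double mutant to 6647 RPKM in the single mutant library.

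With 1 RPKM added, Obp56d had the largest ratios against control among the odorant-binding protein genes, and with 0.1 RPKM added the low Obp56h passed it (3.32 against 2.95 for single mutant against control). Obp56d had 46.5 RPKM in the double mutant library, 139 in the single mutant library and 17.9 in the control library. The single mutant value was 7.78-fold the control value (log2 ratio 2.89), and the double mutant value was 2.59-fold the control value (log2 ratio 1.33) and 3.00-fold below the single mutant value (log2 ratio -1.57). Behind these stand about 1225, 2854 and 473 reads by the step given above. Obp56d moved up the list of protein-coding rows accordingly, to rank 1561 in the double mutant and 511 in the single mutant library, against 3463 in the control library.

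Of the neighbours of Obp56d on 2R, Obp56a had another order of libraries, and the others were low. Obp56a to Obp56f lie within 20 kb of each other, and Obp56d is at 15590641 to 15591300. Obp56a, the other abundant gene there, had 12.7 RPKM in the double mutant library, 16.9 in the single mutant library and 22.4 in the control library, so it was lowest where both alleles were homozygous and highest in control. Obp56d was accordingly 3.66-fold and 8.24-fold above Obp56a in the double and single mutant libraries, and below it in the control library (a ratio of 0.7997). Obp56b had 1.08, 0.218 and 0.307 RPKM in double mutant, single mutant and control. Obp56c (0.0790, 0.471 and 0.380 RPKM), Obp56e (0.277, 0.287 and 0 RPKM) and Obp56f (0, 0.716 and 0.186 RPKM) stayed under 1 RPKM. All 3 were highest in the single mutant library, as Obp56d was, but for Obp56e only by 0.287 against 0.277 RPKM. These rows fall under the limit on low rows given above, so their orders are not read as following Obp56d. Farther along 2R, Obp56h, which has been linked to mating behaviour, had 0.918 RPKM in the double mutant library, 1.89 in the single mutant library and 0.0997 in the control library (log2 ratio 1.40 for single mutant against control). About 15.6, 24.9 and 1.69 reads stand behind those values, so no fold against control is given.

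**Figure D3:**
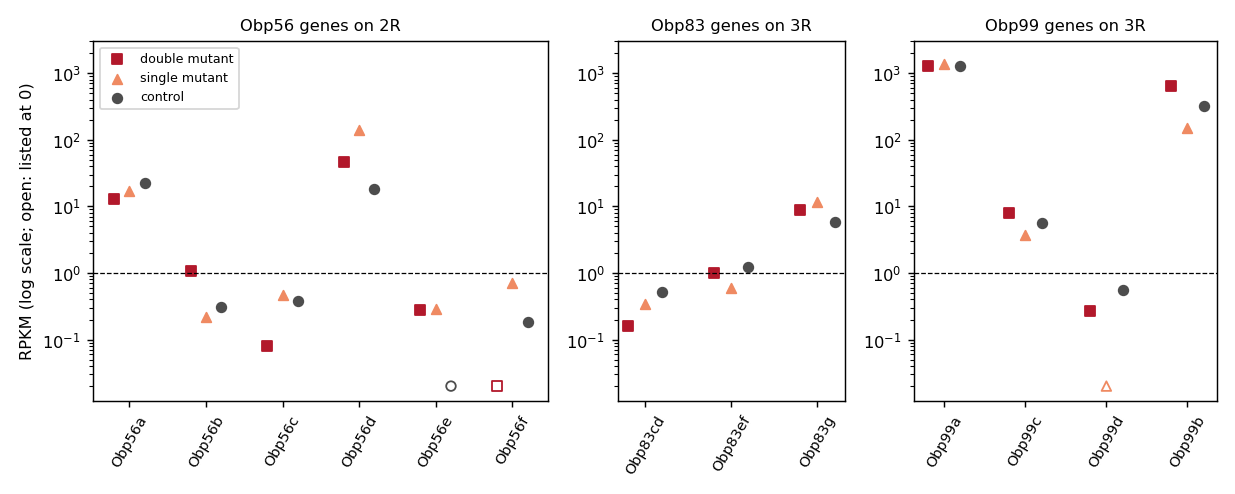
RPKM (log scale) of neighbouring Obp genes in chromosomal order in the double mutant (squares), single mutant (triangles) and control (circles) library; open symbols are values listed at 0 and the dashed line marks 1 RPKM. In no group do all neighbours share 1 order of libraries, although some pairs do, such as Obp99b and Obp99c. Obp56a is highest in control and Obp56d in the single mutant library. Obp99a is highest in the single mutant library and Obp99b in the double mutant library.

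The remaining Obp rows that reached 1 RPKM were low. Obp83g had 8.84 RPKM in the double mutant library, 11.6 in the single mutant library and 5.91 in the control library, and its log2 ratio of 0.87 between single mutant and control lay under the 2-fold line. Its neighbours Obp83ef and Obp83cd, which encode proteins with a doubled odorant-binding domain and overlap each other, had 1.01, 0.591 and 1.24 RPKM and 0.162, 0.347 and 0.523 RPKM in double mutant, single mutant and control. Obp18a, on the X chromosome, had 2.08 RPKM in the double mutant library, 2.57 in the single mutant library and 0.625 in the control library. Its log2 ratio was 1.13 for single mutant against control, on about 41.8 against 13.1 reads. Obp51a lies inside an intron of hbs and had 2.99, 1.88 and 1.71 RPKM in double mutant, single mutant and control. Obp93a had 0.823, 1.64 and 0.405 RPKM, but its annotated exons overlap those of CG5793, so its level is uncertain. Obp57e, which has been tied to taste responses to host plant acids, had 1.55, 1.33 and 1.04 RPKM. Of the 14 Obp rows, 6 had their highest value in the single mutant, the next in the double mutant and the lowest in the control library, an order seen in 21.3% of all named rows at 1 RPKM. Among them Obp18a, Obp56h and Obp93a reached 1 RPKM only in mutant libraries, so their low control values follow in part from the threshold. Obp99a had this order only by 1263 RPKM in the double mutant against 1262 in the control library. The count is therefore no measure of the family.

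The 4 Obp50 rows on 2R had their highest values in control. Obp50b, Obp50d and Obp50e were at 0 in both mutant libraries and had 0.374, 0.935 and 0.490 RPKM in the control library. Obp50a had 0.142 RPKM in the double mutant, 0.0924 in the single mutant and 0.427 in the control library. All of these are under 1 RPKM and fall under the limit on low rows given above.

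Among the receptors the rows that reached 1 RPKM were 27 of 174, and most of these were joined with other genes or shared an assembled locus. In 8 of the 27 the authors' assembly had joined the receptor with other genes or other receptors. Another 10 lay in an assembled locus that held at least 1 other named row. Sharing a locus need not mean sharing exons. In the later annotation no exon of another gene overlaps Gr39a, Gr68a, Gr77a, Gr94a, Ir51b, Ir62a or Or71a, while Or43b, Gr43a and Ir76a have such an overlap. Only 9 had a locus to themselves. Among the 172 member rows under 1 RPKM that were not joined, 26 shared a locus with another named row. The sources used here do not say how strands were handled, so reads of an overlapping gene on the other strand could be included. The highest receptor value belonged to the row Gr47b,san, with 44.4 RPKM in the double mutant library, 40.7 in the single mutant library and 35.2 in the control library, which also holds san, an acetyltransferase gene. Or43b had 9.58, 8.58 and 10.7 RPKM, and its exons overlap those of the cullin gene Cul1 (named lin19 in the table), a row with 66.1, 57.6 and 63.2 RPKM.

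**Figure D4:**
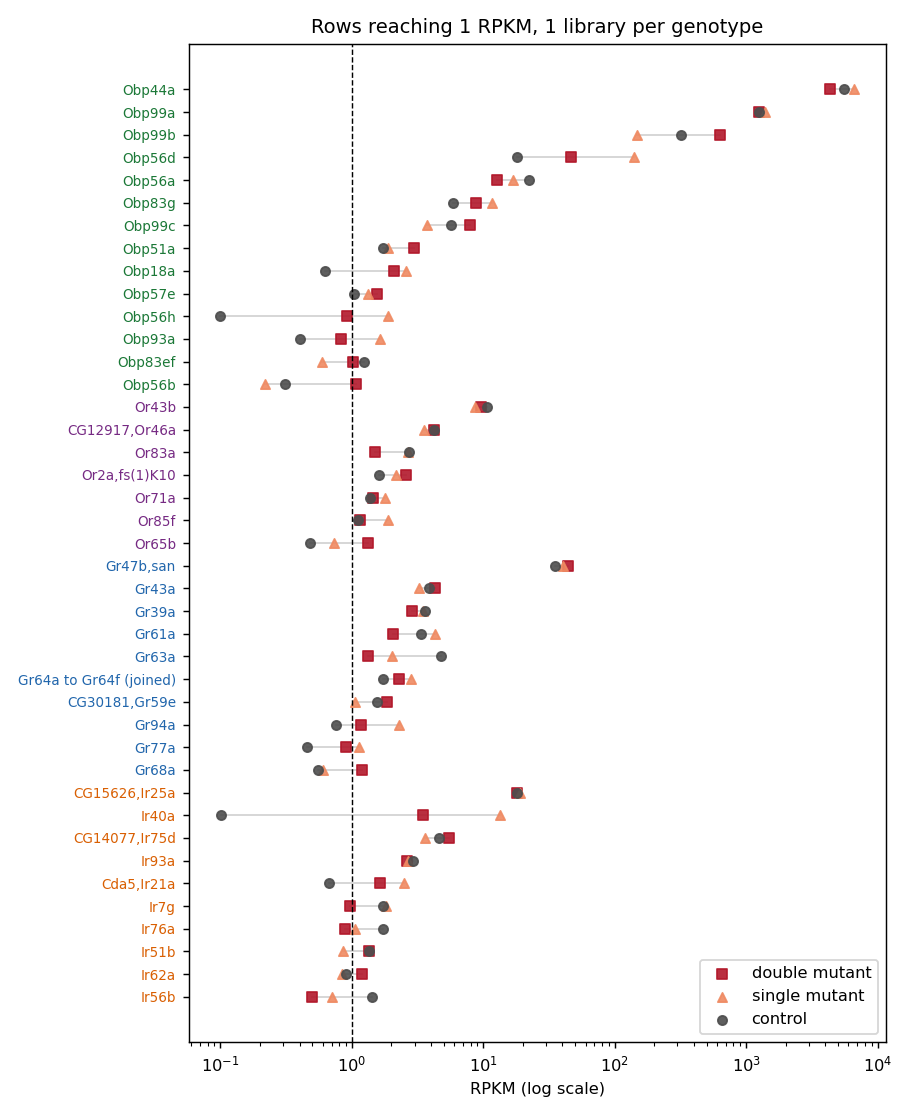
RPKM (log scale) of the 41 rows that reached 1 RPKM, by family (label colour) and mean level, with 1 symbol per library: double mutant (square), single mutant (triangle) and control (circle). Ir40a spans the widest range, 0.102 to 13.4 RPKM, and Obp44a stands highest, between 4317 and 6647 RPKM.

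With 1 RPKM added, Ir40a had the largest ratios against control of all members, and with 5 RPKM added Obp56d passed it (2.66 against 1.85 for single mutant against control). Ir40a works in dry sensing with Ir93a and Ir25a in antennal neurons of the adult. It had 3.45 RPKM in the double mutant library, 13.4 in the single mutant library and 0.102 in the control library. The log2 ratios were 3.71 for single mutant against control, 2.01 for double mutant against control and -1.69 for double against single mutant. About 233, 704 and 6.88 reads stand behind the values, so the control library held few reads and the RPKM ratio of 132 between single mutant and control is imprecise. No other row overlaps Ir40a on 2L (22189520 to 22214265), and no exon of another gene overlaps it in the later annotation. The nearest rows on either side differed far less: CG3635 had 0.516 RPKM in the double mutant, 0.450 in the single mutant and 0.168 in the control library, and CG3262 had 62.9, 74.6 and 68.0 RPKM.

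The values for the partners of Ir40a are less direct. The row CG15626,Ir25a, which joins the broad co-receptor Ir25a with another gene and so gives no value for Ir25a alone, had 17.9 RPKM in the double mutant library, 19.1 in the single mutant library and 17.97 in the control library. Ir93a, in a locus of its own, had 2.62, 2.68 and 2.94 RPKM in the same order, with log2 ratios between -0.12 and -0.02. Ir68a, the moist-sensing receptor, had 0.352, 0.507 and 0.478 RPKM. Ir21a, which acts in cool sensing with the same co-receptors, lies in the row Cda5,Ir21a, joined with a chitin deacetylase gene. That row had 1.63 RPKM in the double mutant, 2.47 in the single mutant and 0.672 in the control library, and its log2 ratio of 1.05 for single mutant against control cannot be given to either gene. The co-receptors Ir8a and Ir76b were low, at 0.0469, 0 and 0.0584 RPKM and at 0.0157, 0.0271 and 0.1004 RPKM in double mutant, single mutant and control.

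Other ionotropic receptor rows at 1 RPKM stayed under 2-fold with 1 RPKM added. Ir76a, an amine receptor, had 0.880 RPKM in the double mutant library, 1.06 in the single mutant library and 1.72 in the control library. Its exons overlap those of CG14102, whose row had 1.88, 0.988 and 1.33 RPKM, so its level is uncertain. Ir56b, which takes part in salt taste, had 0.499, 0.710 and 1.42 RPKM. Its RPKM was 2.85-fold lower in the double mutant than in control, with a log2 ratio of -0.69 once 1 RPKM was added. Its neighbour Ir56c had 0.242, 0.357 and 0.725 RPKM in the same order of libraries. Ir7g had 0.967, 1.80 and 1.73 RPKM. Ir51b and Ir62a each lie inside an intron of another gene and ranged from 0.856 to 1.35 RPKM and from 0.834 to 1.19 RPKM. The row CG14077,Ir75d had 5.45, 3.61 and 4.62 RPKM.

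Gr63a and Gr61a were the 2 gustatory receptor rows at 1 RPKM with a locus of their own. Gr63a, which forms the carbon dioxide receptor together with Gr21a, had 1.32 RPKM in the double mutant library, 2.03 in the single mutant library and 4.74 in the control library. Its value was 3.58-fold lower in the double mutant than in the control library (log2 ratio -1.30, about 55.7 against 199 reads), and its log2 ratio for single mutant against control was -0.92. Gr21a itself was at 0.0108, 0 and 0.0322 RPKM. The small nuclear RNA row snRNA:U11 lies 0.165 kb from Gr63a and had 12502, 26481 and 13496 RPKM, an order different from that of Gr63a. Fie, at the same distance, had 2.00, 2.95 and 1.84 RPKM in double mutant, single mutant and control. On the other side, at 0.296 kb, CG14980 had 22.3, 24.5 and 26.5 RPKM, the same order as Gr63a. Its log2 ratio was only -0.24 for double mutant against control. CG14977, also at 0.296 kb, had 39.8, 21.7 and 29.0 RPKM, and its log2 ratio for double mutant against control was 0.44. Gr61a, a glucose receptor, had 2.053 RPKM in the double mutant, 4.33 in the single mutant and 3.37 in the control library, with a log2 ratio of -0.80 for double against single mutant. The 6 sugar receptor genes Gr64a to Gr64f shared 1 row, with 2.27, 2.82 and 1.73 RPKM in double mutant, single mutant and control.

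Gr43a, the fructose receptor that also acts as a nutrient sensor in the brain, differed little. It had 4.32 RPKM in the double mutant library, 3.26 in the single mutant library and 3.89 in the control library, and its log2 ratios ran from -0.20 to 0.32. Its exons overlap those of CG11107 (now Dhx15), whose row had 82.6, 85.4 and 93.4 RPKM, so its level is uncertain. Gr39a, linked to courtship, had 2.86, 3.46 and 3.59 RPKM and lies inside Mio (now Mondo). Gr94a, inside p53, had 1.17, 2.28 and 0.759 RPKM in double mutant, single mutant and control. The bitter receptor Gr66a stayed at 0.770, 0.670 and 0.633 RPKM, Gr28a at 0.0431, 0.0611 and 0.309 RPKM and Gr28b at 0.126, 0.0986 and 0.1999 RPKM, and the bitter receptor Gr33a was listed at 0 in all 3 libraries. The Gr93 neighbours on 3R were highest in control for Gr93b, Gr93c and Gr93d (0.706, 0.687 and 0.914 RPKM), against 0.117, 0.206 and 0.229 RPKM in the double mutant and 0.202, 0.507 and 0.143 RPKM in the single mutant library, all under 1 RPKM.

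Odorant receptors had the smallest share of rows at 1 RPKM of the 4 families, and none of those 7 rows was past 2-fold (with 1 RPKM added) in any comparison. Or83b, now named Orco, the co-receptor that odorant receptors need, had 0.209 RPKM in the double mutant library, 0 in the single mutant library and 0.180 in the control library. Its neighbour Or83a had 1.498 RPKM in the double mutant, 2.66 in the single mutant and 2.70 in the control library. Although Or83a had an assembled locus to itself, its exons overlap those of CG1172 in the later annotation, so its level is uncertain. Or85f had 1.16, 1.90 and 1.12 RPKM, and Or71a, inside another gene (named cp309 in the table, in a row with CG6945), had 1.44, 1.79 and 1.38 RPKM. Or65b had 1.32, 0.730 and 0.484 RPKM in double mutant, single mutant and control, and its neighbour Or65c had the same direction between double mutant and control, with 0.853 and 0.323 RPKM. The rows CG12917,Or46a (4.199, 3.56 and 4.24 RPKM) and Or2a,fs(1)K10 (2.59, 2.15 and 1.61 RPKM) hold other genes as well.

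Counted over the 41 rows at 1 RPKM, 5 were higher by 2-fold or more in the single mutant than in the control library and 1 was lower, or 12.2% and 2.44%, against 2.70% and 3.60% of the 9693 named rows tested. The higher rows were Ir40a, Obp56d, Obp56h, Obp18a and Cda5,Ir21a, and the lower one was Obp99b. Obp56h, Obp18a, Ir40a and Cda5,Ir21a were under 1 RPKM in control and so passed the filter only through the mutant libraries, which makes their count no measure of the families. Between double and single mutant libraries 1 row was higher (Obp99b) and 2 were lower (Ir40a and Obp56d), or 2.44% and 4.88%, against 4.27% and 1.48% of all named rows. Between double mutant and control libraries 2 were higher (Ir40a and Obp56d) and 1 lower (Gr63a), or 4.88% and 2.44%, against 3.06% and 1.62%. The member medians were 0.09, -0.14 and 0.20 in these 3 comparisons, beside 0.04, 0.04 and 0.07 over all named rows tested. Scaling to the total without short RNA genes moved the member median for double against single mutant to 0.12 and that of all named rows to 0.29, so the members stayed below all rows while the sign of their median turned. Any pair of these comparisons shares a library. The 34 rows that reached 2-fold in no comparison had log2 ratios from -0.80 to 0.91.

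**Figure D5:**
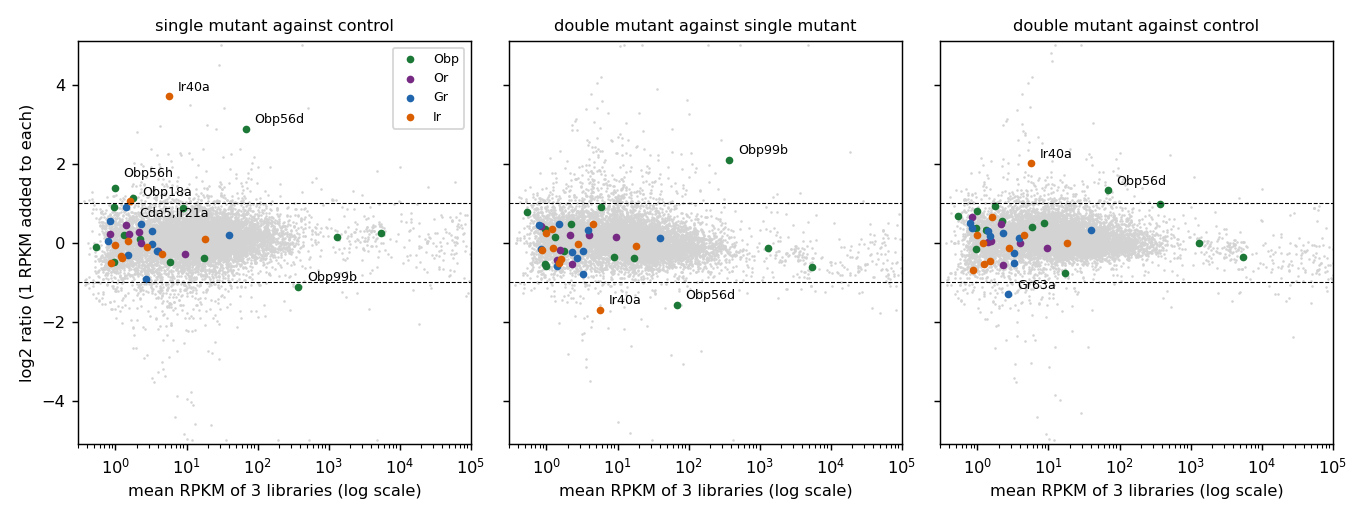
Log2 ratio (1 RPKM added to each value) against mean RPKM (log scale) for members by family over all other named rows at 1 RPKM (grey; rows beyond 5 or -5 are drawn at the edge and rows above 100000 RPKM are not shown). Dashed lines mark 2-fold, and the 7 members beyond them in a comparison are named: Ir40a and Obp56d are above the line in both mutant libraries against control.

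Family counts followed from the same few rows. Of the 14 Obp rows, 3 were higher and 1 lower in single mutant against control, 1 and 1 in double against single mutant and 1 and 0 in double mutant against control. The 10 Ir rows gave 2 and 0, 0 and 1, and 1 and 0. The 10 Gr rows gave a single call, Gr63a in double mutant against control, and the 7 Or rows gave 0. The median longest transcript in the later annotation was 610.5 bases for Obp and 1825.5 for Ir, with Or (1215) and Gr (1212) alike between them. Over all named rows at 1 RPKM, those with transcripts under 1 kb, which hold 13 of the 14 Obp rows, had a median log2 ratio of -0.11 for double against single mutant and 0.12 for single mutant against control, against 0.23 and 0.03 for transcripts of 4 kb or more. The part of length in the Obp ratios was not tested.

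Neighbouring members were seldom at 1 RPKM together. Members within 20 kb of the next member formed 40 groups with 116 rows, of which 13 reached 1 RPKM, against 28 of the 99 rows outside such groups. Most of the 8 joined rows at 1 RPKM, and most of the 14 others in a locus shared with another named row, lay outside the groups. The part of other genes in this contrast was not tested. In 31 of the 40 groups no row reached 1 RPKM. At least 2 such rows stood together in 3 groups, which were all of Obp genes: Obp56a, Obp56b and Obp56d, Obp83ef and Obp83g, and Obp99a and Obp99c.

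Related genes with other names were examined beside the members. The list of other carrier proteins and of olfactory and taste partners had 39 measured rows, of which 17 reached 1 RPKM. In it 0 were higher and 1 lower at 2-fold in single mutant against control, 2 and 0 in double against single mutant, and 0 and 1 in double mutant against control. Os-C, first known from the antenna, had 13.6 RPKM in the double mutant library, 4.79 in the single mutant library and 8.26 in the control library. Pbprp5, the odorant-binding protein gene now called Obp28a, had 0.597, 1.69 and 2.45 RPKM, and the row Est-6,Est-P, with a carboxylesterase gene, had 1.63, 0.202 and 1.76 RPKM. The odorant-binding protein gene lush, needed for pheromone sensing, stayed at 0.0343, 0.102 and 0.0956 RPKM. Of 12 ionotropic glutamate receptor rows, relatives of the Ir family, 6 reached 1 RPKM and 1 was lower in single mutant against control, with 0 calls otherwise. That row, Glu-RI, had 2.53 RPKM in the double mutant library, 0.855 in the single mutant library and 2.99 in the control library. The 8 tested rows of the list on fructose and nutrient sensing gave 0 calls in each comparison.

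Markers of the tissue place these values. Of the mutated genes, BRWD3 had 47.8 RPKM in the double mutant library, 43.2 in the single mutant library and 29.1 in the control library, and yem, listed as yemalpha, had 15.6, 8.04 and 11.9 RPKM, so neither was lowest where both alleles were homozygous. Neuron, glia and neuroblast markers were present in every library (10, 10 and 7 of the listed rows at 1 RPKM), and so were ring gland genes (8 of 9 rows), whose tissue is attached to the brain. At 2-fold, the neuron gene brp (21.0, 7.48 and 10.4 RPKM in double mutant, single mutant and control), the glial gene repo (16.4, 6.73 and 12.4 RPKM) and the neuroblast gene pros (22.1, 9.99 and 8.09 RPKM) were the called rows of their lists, all with a log2 ratio above 1 for double against single mutant. Of the rows at 1 RPKM, 3 of 8 salivary gland genes were higher and 7 of 11 gut enzymes lower in single mutant against control. Of the salivary gland genes, 3 were higher and 4 lower in double against single mutant, and 3 higher and 2 lower in double mutant against control. In the other lists, 6 of 8 hemocyte genes were higher in double mutant against control, and 4 of 6 cuticle genes were lower in each mutant library than in control. Summed over their lists, hemocyte genes had 1126, 588 and 502 RPKM in double mutant, single mutant and control, salivary gland genes 104, 640 and 162 RPKM, gut enzymes 49.5, 6.45 and 121 RPKM and cuticle genes 19.6, 29.3 and 119 RPKM. Muscle genes had 31.7, 34.0 and 43.3 RPKM and genes of eye, antennal and other discs 175, 153 and 116 RPKM. Of the 13 rows in that disc list, 12 reached 1 RPKM, among them ato with 4.37, 3.37 and 5.12 RPKM in double mutant, single mutant and control. The exception was the antennal proneural gene amos, which stayed under 0.5 RPKM. The salivary gland sum was carried by Sgs5, Sgs7 and Sgs8, which were highest in the single mutant library, as Obp56d and Ir40a were, but lowest in the double mutant library, whereas Obp56d and Ir40a were lowest in control. The other salivary gland genes did not share one order: ng3 had 12.4, 0.604 and 0.934 RPKM and Sgs3 had 2.65, 5.40 and 6.89 RPKM in double mutant, single mutant and control. The part of these tissues in the member values was not tested.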

How the data were processed

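RNA was measured in 3 libraries, 1 per genotype. Per the submitters' processing notes, FastQC, Trimmomatic, TopHat2 2.0.9 and Cufflinks 2.0.2 were used with build dm3. The sources used here give neither their settings nor how strands were treated. RPKM values per assembled locus were deposited by the authors as a single table. Positions are printed as deposited, in dm3. Transcript lengths, exon overlaps, enclosing genes and current symbols came from the BDGP6 annotation, matched by symbol (205 of 205 member rows that were not joined). Its coordinates served only to derive these features, and none are printed. Of 15229 rows, 1769 named no gene and 1 had a missing value; the highest row per name was kept (13358 rows, 9693 with at least 1 RPKM in a library). Ratios are log2((a + 1)/(b + 1)), and 2-fold or more counted as higher or lower. The calculation was tested on simulated data. Named are members beyond 2-fold, members with a mean of at least 5 RPKM, members of known role and those nearest 1 RPKM; some others (Obp50, Gr93 and similar low neighbours) were chosen after their values were seen. The members and all lists were chosen with earlier results of these data known. Alternatives changed the pseudocount, filter, fold, scaling and row handling. Python 3.11.15, numpy 2.4.6 and pandas 2.3.3 were used. Gr5a was not analysed here.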

Additional observations from a re-analysis of the deposited data

How the results depend on the processing

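No paired analysis was possible because each genotype has 1 library. The number of rows reaching the threshold was 41 at 1 RPKM, 78 at 0.5 RPKM and 25 at 2 RPKM. For single mutant against control, 5 members higher became 8 with a pseudocount of 0.1 RPKM or a line at 1.5-fold and 2 with a pseudocount or filter of 5 RPKM, and 1 lower became 2 in the first 2 settings. For double against single mutant, 1 higher became 3 with 0.1 RPKM or at 1.5-fold and 2 when scaled to the total without short RNA genes, and 2 lower became 6 at 1.5-fold. For double mutant against control, 2 higher became 7 with 0.1 RPKM, 1 with 5 RPKM, 8 at 1.5-fold and 4 under that rescaling, and 1 lower became 2 with 0.1 RPKM, 0 with a pseudocount or filter of 5 RPKM and 3 at 1.5-fold. That rescaling moved the median log2 ratio of all named rows to 0.29 for double against single mutant and 0.33 for double mutant against control. Of 384 alternative values for 15 named members, 5 changed sign, all of ratios far from 2-fold: under that rescaling CG15626,Ir25a (0.18 for double against single mutant, 0.27 for double mutant against control), Or43b (0.13 for double mutant against control) and Obp99a (0.15 for double against single mutant), and, scaled to the library medians, Obp99a (-0.14 for double mutant against control). The calls lost were those of Obp18a, Obp56h and Cda5,Ir21a (single mutant against control) and of Gr63a and Ir40a (double mutant against control), all with a pseudocount of 5 RPKM. Ir40a and Obp56d in single mutant against control, and Obp99b in double against single mutant, passed 2-fold in every alternative run.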
